A study of Mus musculus with 16 samples.

Results

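The genes described here are 8 cadherins: the type I cadherins Cdh1, Cdh2, Cdh3 and Cdh4, the type II cadherins Cdh6, Cdh8 and Cdh11, and the lipid-anchored cadherin Cdh13. They were picked by gene symbol from the deposited table of normalized values, which held 23380 genes, out of 48709 gene features in the deposited raw counts. All 8 were found and all 8 passed the filter on low counts. RNA had been sequenced from 16 libraries of wild-type ICR mouse embryos at embryonic day 13, in 4 groups of 4 libraries: the epithelium and the mesenchyme of the parotid gland, and the same layers of the submandibular gland. No group carried a transgene or received a treatment according to the labels, and the 4 samples of each group are labelled as biologically independent. They do not say whether embryos were pooled within a sample, and the design text also mentions a period of culture that the sample labels do not. The series title speaks of recombining salivary gland tissue, and the comparisons made here ask which cadherins differed between the layers of a gland and between the glands within a layer.

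Cadherins are calcium-dependent adhesion proteins that join neighbouring cells by binding mostly to the same cadherin on the next cell. Inside the cell, classical cadherins hold p120 catenin and β-catenin (or plakoglobin), and α-catenin links these to actin. In branching glands E-cadherin, the product of Cdh1, holds the epithelial bud together, while mesenchymal cells use other cadherins such as N-cadherin (Cdh2) and cadherin-11. Cdh13 encodes T-cadherin, which has the extracellular repeats but no cytoplasmic tail, so it does not bind catenins and is a classical cadherin only in a loose sense.

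The sequence that sets the 2 types apart lies at the start of the mature protein. Cadherins are made with a prodomain that is cut off behind a furin-type site, and the first repeat then docks through tryptophans near the new end. The coding sequence just behind that site is shown because it divides the members by type. Each line gives the first 60 bases (20 codons) behind the site in GENCODE M21 transcripts on GRCm38, read 5′ to 3′ on the coding strand, and capitals mark in-frame TGG codons for tryptophan. Cdh2 is not shown.
Cdh1, chr8:106653582-106653641, plus strand: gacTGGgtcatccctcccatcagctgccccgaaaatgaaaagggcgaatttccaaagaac
Cdh3, chr8:106536618-106536677, plus strand: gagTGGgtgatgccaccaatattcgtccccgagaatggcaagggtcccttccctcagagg
Cdh4, chr2:179797560-179797619, plus strand: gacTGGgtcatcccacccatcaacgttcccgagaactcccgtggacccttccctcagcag
Cdh6, chr15:13091659-13091718, minus strand: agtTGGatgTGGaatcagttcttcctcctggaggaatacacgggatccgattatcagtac
Cdh8, chr8:99400735-99400794, minus strand: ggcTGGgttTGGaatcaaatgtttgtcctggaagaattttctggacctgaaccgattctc
Cdh11, chr8:102679621-102679680, minus strand: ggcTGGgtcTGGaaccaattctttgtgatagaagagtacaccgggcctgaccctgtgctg
Cdh13, chr8:118757416-118757475, plus strand: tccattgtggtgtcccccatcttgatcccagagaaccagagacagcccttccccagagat
The 3 type I genes shown have 1 tryptophan codon, at codon 2. The 3 type II genes have 2, at codons 2 and 4. Cdh13 has none in this window. In the comparison between layers below, all 3 type II genes were lower in epithelium in both glands, while of the 4 type I genes 2 were higher and 2 lower. Between the mesenchymes 2 of the 3 type II genes were called higher in the parotid, and of the 4 type I genes none higher and 1 lower. Over all genes tested, 20.8% were called higher and 13.7% lower in parotid mesenchyme. Between the layers the shares were 31.4% to 33.7% in each direction. No test of type was made over so few genes.

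Of the 8 genes, 5 lie on chromosome 8 (Cdh1, Cdh3, Cdh8, Cdh11 and Cdh13), with Cdh3 ending 46053 bases before Cdh1 begins on the same strand. Cdh2 is on chromosome 18, Cdh4 on chromosome 2 and Cdh6 on chromosome 15. The library kits keep no strand information, so reads of overlapping genes on opposite strands cannot be told apart. Such an overlap was found for Cdh8, which shares 23 exon bases with the antisense gene Gm15679, and that gene reached at most 0.161 CPM (counts per 1e6 counts of a library, scaled with TMM factors).

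Gene counts summed to between 16912258 and 27646844 in a library. The labelled layers carried their markers: all 12 epithelial and all 12 mesenchymal marker genes were called in the labelled direction in both glands. Summed epithelial markers in mesenchyme were 1.36% of their epithelial level in the parotid and 1.75% in the submandibular gland, where Epcam made up 35.3 of 48.7 CPM, and summed mesenchymal markers in epithelium were 1.15% and 1.03% of their mesenchymal level. Markers of other cells, 10 genes a list, were present in mesenchyme: those of endothelium summed to 531 to 784 CPM in parotid and 587 to 766 in submandibular mesenchyme, of erythroid cells to 1441 to 2191 and 3293 to 4141, and of macrophages to 72.0 to 126 and 54.1 to 78.9. In epithelium, submandibular replicate 1 and parotid replicate 4 stood out for erythroid markers, at 732 and 494 CPM against 7.42 to 151 in the other 6 epithelial libraries. Schwann lineage markers, which include the salivary epithelial genes Sox10 and Erbb3, summed to 367 to 879 CPM in epithelium and 33.5 to 134 in mesenchyme.

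**Figure D1:**
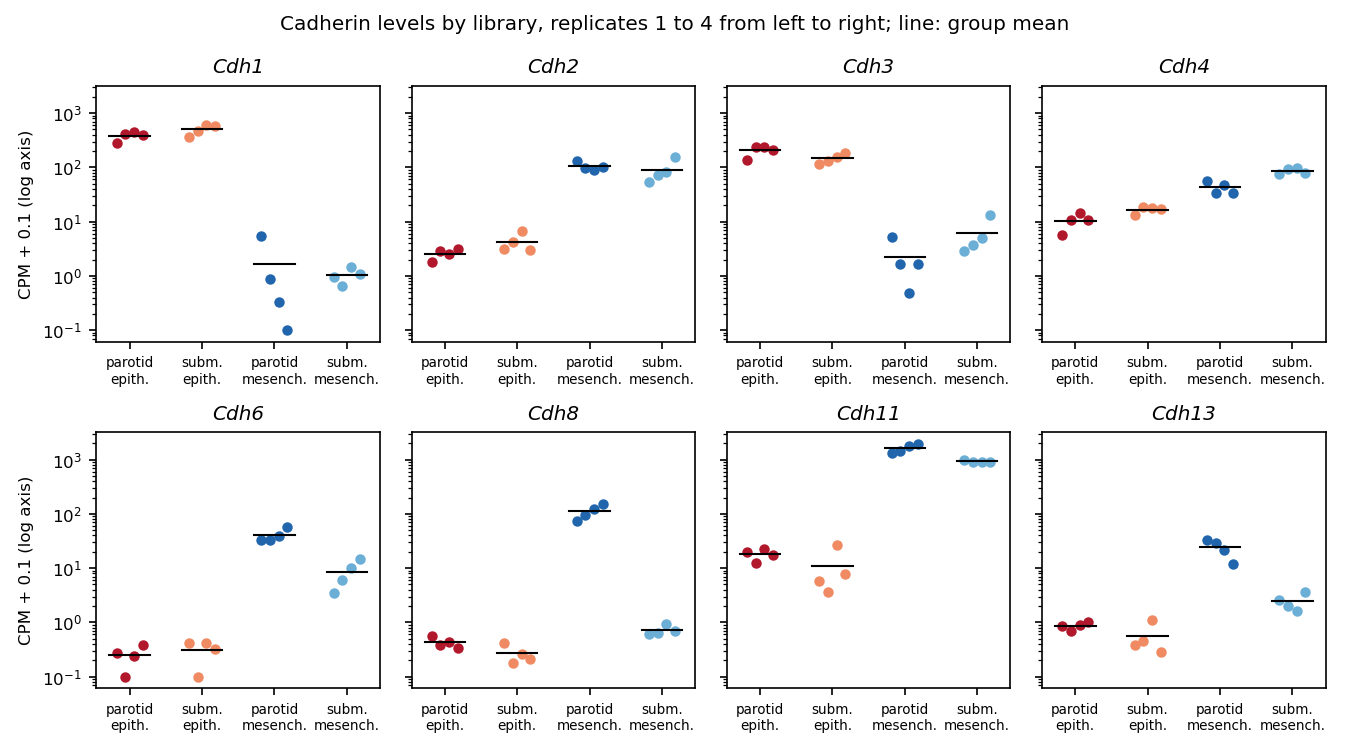
CPM plus 0.1 on a log axis for each of the 8 cadherins in every library, with the 4 libraries of a group side by side and a black line at the group mean. Cdh1 and Cdh3 are high in the epithelial groups, the other 6 are high in mesenchyme, and Cdh8 is high in parotid mesenchyme alone (111 ± 33.9 CPM against at most 0.621 in the other group means).

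Epithelium and mesenchyme differed in every cadherin, in both glands. Cdh1 and Cdh3 were higher in epithelium and Cdh2, Cdh4, Cdh6, Cdh8, Cdh11 and Cdh13 were higher in mesenchyme. The quasi-likelihood test of edgeR, with Benjamini-Hochberg adjustment over the 18191 genes tested, called all 8 at an adjusted p under 0.05 in each gland, 2 higher and 6 lower in epithelium. The background is high: 64.9% of all genes passed the same test between the parotid layers (31.4% upward and 33.5% downward in epithelium) and 67.0% in the submandibular gland (33.3% and 33.7%). The median log2 difference of the 8 was -5.18 in the parotid and -2.43 in the submandibular gland, against 0.00 and 0.01 for all genes tested. In whole tissue, fewer cells of a type and less RNA per cell cannot be told apart.

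Cdh1, which encodes E-cadherin, the main adhesion protein of epithelial junctions, was at 284, 409, 447 and 399 CPM in the 4 parotid epithelium libraries and at 365, 466, 600.4 and 583 CPM in submandibular epithelium. In parotid mesenchyme it was at 5.26, 0.767, 0.237 and 0 CPM, and in submandibular mesenchyme at 0.868, 0.549, 1.34 and 0.980 CPM. The layers lay far apart in both glands, and 1 parotid mesenchyme library had no Cdh1 count at all. The mean was 246 times higher in parotid epithelium than in parotid mesenchyme (log2 fold change 8.03, SE 0.71, edgeR adjusted p = 1.97e-07) and 539 times higher in the submandibular gland (9.07, SE 0.76, edgeR adjusted p = 9.15e-08). The mesenchymal level was 0.407% and 0.186% of the epithelial one. Of the 12 epithelial markers, 2 kept a smaller share in parotid mesenchyme and 3 in submandibular mesenchyme, and the median over the 12 was 0.806% and 0.397%.

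Cdh3 encodes P-cadherin, found in basal and progenitor cells of many epithelia. It was at 139, 242, 237 and 213 CPM in parotid epithelium and at 113, 131, 156 and 188 CPM in submandibular epithelium. The mesenchyme libraries had 5.2, 1.53, 0.395 and 1.54 CPM in the parotid and 2.76, 3.65, 4.95 and 13.3 CPM in the submandibular gland. Again no library of one layer reached the other. The fold between the layers was 95.9 in the parotid (log2 fold change 6.63, SE 0.62, edgeR adjusted p = 3.20e-07) and 23.9 in the submandibular gland (4.58, SE 0.55, edgeR adjusted p = 4.01e-06). What remained in submandibular mesenchyme was 4.19% of the epithelial level, a larger share than that of 11 of the 12 epithelial markers, the exception being Epcam at 5.02%. In the parotid the share was 1.04%, above that of 7 of the 12.

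Cdh2, the gene of N-cadherin of neural and mesenchymal cells, showed the reverse arrangement. Parotid mesenchyme libraries were at 129, 95.8, 89.4 and 103 CPM and submandibular ones at 53.3, 71.4, 81.9 and 154 CPM. The epithelial libraries held 1.70, 2.72, 2.45 and 2.99 CPM in the parotid and 3.06, 4.03, 6.63 and 2.90 CPM in the submandibular gland. Cdh2 was thus 42.3 times lower in parotid epithelium (log2 fold change -5.41, SE 0.36, edgeR adjusted p = 2.89e-09) and 21.7 times lower in submandibular epithelium (-4.46, SE 0.34, edgeR adjusted p = 1.13e-08).

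Cdh4, the gene of R-cadherin, first described in the retina, had the smallest difference between the parotid layers. It was at 5.47, 10.8, 14.5 and 10.5 CPM in parotid epithelium against 55.7, 34.4, 48.1 and 33.7 CPM in parotid mesenchyme, and at 13.1, 18.1, 17.5 and 16.7 CPM against 76.8, 93.7, 97.4 and 80.4 CPM in the submandibular gland. The layers did not overlap in either gland. Epithelium kept 24.0% of the mesenchymal level in the parotid (log2 fold change -2.06, SE 0.23, edgeR adjusted p = 6.99e-07) and 18.8% in the submandibular gland (-2.41, SE 0.23, edgeR adjusted p = 9.12e-08). Both shares were above the 1.15% and 1.03% of the summed mesenchymal markers in the same epithelia.

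Among the type II genes, Cdh11 was the most abundant cadherin of the mesenchyme. It encodes cadherin-11, also called OB-cadherin, of osteoblasts and loose mesenchyme. Its libraries were at 1298, 1447, 1785 and 1930.4 CPM in parotid mesenchyme and at 982, 907, 891 and 922 CPM in submandibular mesenchyme. Epithelium held 19.5, 12.4, 22.7 and 17.6 CPM in the parotid and 5.64, 3.51, 26.8 and 7.85 CPM in the submandibular gland. Replicate 3 was the high one of the submandibular epithelium libraries. It also had the most mesenchymal marker RNA of that group, 368 CPM summed against 60.7, 62.8 and 145, and the part of those markers in its Cdh11 level was not tested. Cdh11 was 89.4 times lower in parotid epithelium (log2 fold change -6.48, SE 0.53, edgeR adjusted p = 8.02e-08) and 84.6 times lower in submandibular epithelium (-6.43, SE 0.54, edgeR adjusted p = 8.14e-08). The epithelial shares of 1.12% and 1.18% stood beside 1.15% and 1.03% for the mesenchymal markers.

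Cdh6 and Cdh8 had next to no RNA in epithelium. Cdh6, the gene of K-cadherin of developing kidney and neural crest, summed to 13 counts over the 4 parotid epithelium libraries and 21 counts over the submandibular ones, with 1 library of each group at 0. In mesenchyme it was at 32.7, 33.5, 39.8 and 57.6 CPM in the parotid and 3.37, 6.04, 9.91 and 14.4 CPM in the submandibular gland. Its fold between the layers was 273 in the parotid (log2 fold change -8.04, SE 0.62, edgeR adjusted p = 1.16e-08) and 39.2 in the submandibular gland (-5.27, SE 0.58, edgeR adjusted p = 6.04e-07). Cdh8, a gene known for its expression in the nervous system, summed to 29 and 17 counts in the epithelia. Parotid mesenchyme had 72.9, 97.1, 123 and 152 CPM of Cdh8, and submandibular mesenchyme 0.510, 0.549, 0.826 and 0.599 CPM. The layers of the parotid differed 337-fold (log2 fold change -8.36, SE 0.30, edgeR adjusted p = 1.94e-12) and those of the submandibular gland 3.69-fold (-1.82, SE 0.44, edgeR adjusted p = 0.00151). That last call rests on 17 against 48 counts and was lost with limma-voom (-1.90, adjusted p = 0.0671). Over all alternatives its adjusted p ran from 0.000136 to that value.

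Cdh13, the gene of T-cadherin, which also binds adiponectin, was at 33, 29.5, 21.4 and 12 CPM in parotid mesenchyme and at 2.5, 1.90, 1.55 and 3.59 CPM in submandibular mesenchyme. All 8 epithelial libraries were at or under 1.008 CPM. The mesenchymal mean was 31.1 times higher in the parotid (log2 fold change for epithelium minus mesenchyme -4.95, SE 0.43, edgeR adjusted p = 2.82e-08) and 5.18 times higher in the submandibular gland (-2.44, SE 0.45, edgeR adjusted p = 0.00012).

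**Figure D2:**
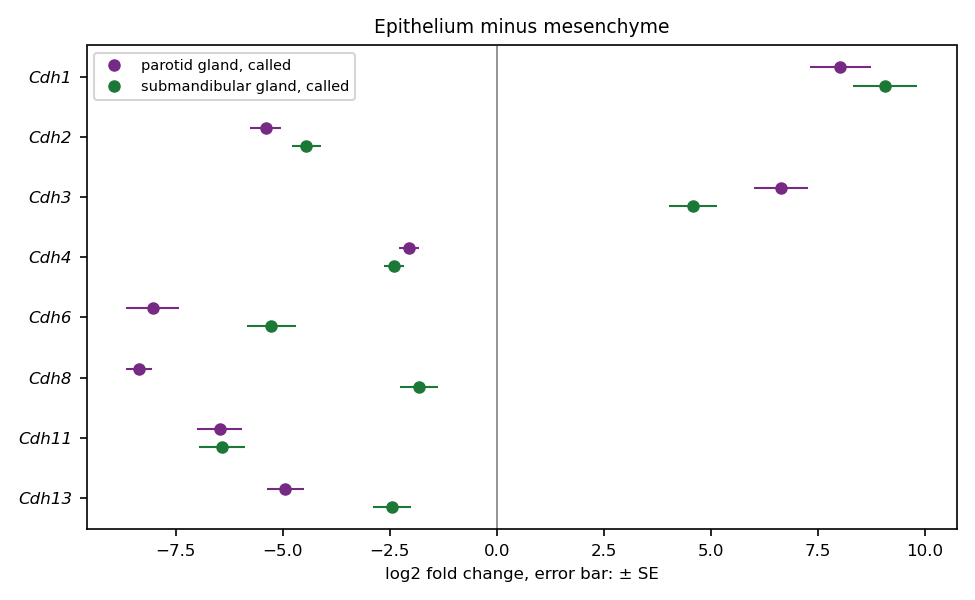
Fitted log2 fold change of epithelium minus mesenchyme for each cadherin, with bars of 1 SE, in the parotid (purple) and the submandibular gland (green). Cdh1 and Cdh3 lie right of 0 and the other 6 left of it in both glands, and Cdh8 moves from -8.36 in the parotid to -1.82 in the submandibular gland.

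Levels of different genes were compared only after division by exon length (CPM per kb of merged GENCODE M21 exons, which need not be the isoforms used in these tissues). On that scale Cdh1 made up 62.3 ± 1.43% (SD, n = 4) of the summed RNA of the 8 cadherins in parotid epithelium and 74.5 ± 1.28% in submandibular epithelium. Cdh3 followed with 34.8 ± 1.91% and 22.8 ± 1.83%. The remaining 6 genes shared the rest, led by Cdh11 at 1.56 ± 0.544% in the parotid and by Cdh4 at 1.56 ± 0.244% in the submandibular gland. In both mesenchymes most of the sum came from 1 gene, Cdh11, which held 81.4 ± 2.61% in the parotid and 80.1 ± 4.55% in the submandibular gland. The genes behind it differed in order. In parotid mesenchyme Cdh8 (6.36 ± 1.03%) and Cdh2 (6.00 ± 1.79%) came next, followed by Cdh4 (2.75 ± 0.979%), Cdh6 (2.02 ± 0.283%) and Cdh13 (1.02 ± 0.521%). In submandibular mesenchyme Cdh4 (9.27 ± 1.37%) and Cdh2 (8.48 ± 3.68%) came next, Cdh3 had 1.06 ± 0.768% and Cdh8 0.062 ± 0.0151%. Cdh8 and Cdh2 in the parotid, and Cdh4 and Cdh2 in the submandibular gland, did not differ beyond their spread.

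**Figure D3:**
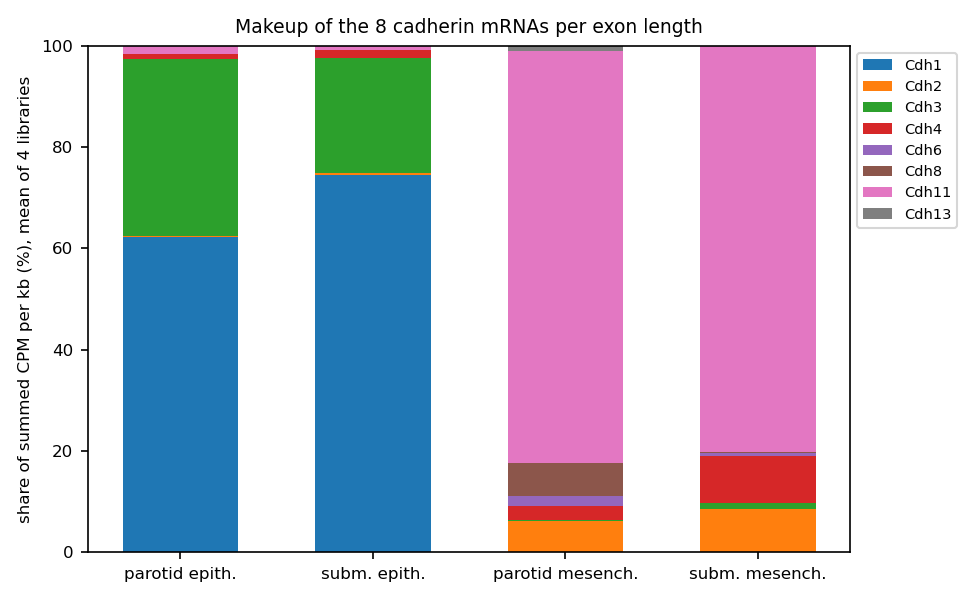
Share of each cadherin in the summed CPM per kb of the 8 genes, in percent, as the mean of 4 libraries in each group. Blue (Cdh1) and green (Cdh3) fill the epithelial bars at 62.3% and 34.8% in the parotid and 74.5% and 22.8% in the submandibular gland, and pink (Cdh11) fills about the same part of both mesenchyme bars, 81.4% and 80.1%.

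Between the epithelia of the glands 1 of the 8 cadherins was called, beside 20.9% of all genes. The 2 epithelial genes leaned opposite ways: Cdh1 was at 385 ± 70.4 CPM in the parotid gland and at 504 ± 110 CPM in the submandibular gland, and Cdh3 at 208 ± 47.8 and 147 ± 32.5 CPM. Libraries of the glands overlapped for both genes, and neither was called (Cdh1 log2 fold change, parotid minus submandibular, -0.39, SE 0.49, edgeR adjusted p = 0.618, and Cdh3 0.50, SE 0.46, edgeR adjusted p = 0.479). Within a library, however, the balance of the pair did not overlap between the glands. The log2 ratio of Cdh3 to Cdh1, each with 0.1 CPM added, was -0.90 ± 0.11 (SD, n = 4) in parotid and -1.77 ± 0.14 in submandibular epithelium, a difference of 0.87. A 2-sided exact permutation test over the 70 splits of 8 libraries gave p = 0.0286, the smallest this design allows, and 0.0571 after Benjamini-Hochberg adjustment over the 2 ratios tested. The difference lay between 0.82 and 0.92 when any 1 library was left out, and it does not move with library scaling because both genes come from the same library. The other ratio tested, Cdh11 to Cdh2 in mesenchyme, was 3.95 ± 0.45 in the parotid and 3.47 ± 0.67 in the submandibular gland with overlapping libraries (difference 0.48, exact permutation p = 0.286).

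The cadherin called between the epithelia was Cdh4, at 10.3 ± 3.72 CPM in parotid libraries and 16.4 ± 2.26 CPM in submandibular libraries (log2 fold change -0.67, SE 0.23, edgeR adjusted p = 0.0487). That is 1 of 8, where 20.9% of all genes passed, 11.2% upward and 9.72% downward in the parotid. Libraries overlapped, and the call was lost in 18 of 26 alternatives, with adjusted p from 0.0178 to 0.143. It went when any single library was left out except parotid epithelium replicate 3 and parotid mesenchyme replicates 1 and 4, with differences of -0.88 to -0.43 over all 16 such fits. Cdh2 was at 2.46 ± 0.557 and 4.15 ± 1.73 CPM (-0.73, SE 0.35, edgeR adjusted p = 0.154), Cdh11 at 18.1 ± 4.30 and 10.9 ± 10.7 CPM (0.75, SE 0.45, edgeR adjusted p = 0.260). Cdh13 was at 0.772 ± 0.126 and 0.460 ± 0.372 CPM (0.82, SE 0.48, edgeR adjusted p = 0.239). Cdh6 and Cdh8 were below 0.5 CPM in all 8 libraries and were not called. Submandibular epithelium replicate 3, the library rich in mesenchymal markers, decided 2 of these: without it Cdh11 was higher in parotid epithelium by 1.68 (edgeR adjusted p = 0.00019) and Cdh13 by 1.48 (edgeR adjusted p = 0.036). Cdh11 was also called with limma-voom (1.22, adjusted p = 0.0371). Over all alternatives the adjusted p ran from 0.00019 to 0.564 for Cdh11 and from 0.036 to 0.584 for Cdh13. Summed mesenchymal markers were 157 to 528 CPM in parotid and 60.7 to 368 CPM in submandibular epithelium, and their part in these values was not tested.

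Between the mesenchymes more of the cadherins were called than between the epithelia, as were more of all genes. Cdh6, Cdh8 and Cdh13 were higher in parotid and Cdh4 was higher in submandibular mesenchyme, while Cdh1, Cdh2, Cdh3 and Cdh11 were not called. These are 4 of 8 genes, where 34.5% of all genes were called. By direction, 3 were higher in the parotid against a background of 20.8% and 1 was lower against 13.7%. The median log2 difference of the 8 was 0.73, and 0.04 over all genes tested.

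Cdh8 gave the widest gap: its lowest parotid library, at 72.9 CPM, stood above the highest submandibular one, at 0.826 CPM, and the means of 111 ± 33.9 and 0.621 ± 0.141 CPM differed 179-fold (log2 fold change 7.47, SE 0.28, edgeR adjusted p = 4.47e-11). Submandibular mesenchyme still lay above the epithelia, whose libraries were at 0.0806 to 0.466 CPM. The fold ran from 7.29 to 7.64 on the log2 scale over 26 alternatives. Cdh13 differed 10.1-fold, from 24.0 ± 9.33 to 2.39 ± 0.897 CPM (log2 fold change 3.33, SE 0.39, edgeR adjusted p = 4.88e-06). Cdh6 differed 4.85-fold, from 40.9 ± 11.5 to 8.44 ± 4.81 CPM (2.28, SE 0.42, edgeR adjusted p = 0.000493). Libraries of the glands did not overlap for any of these 3.

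Cdh4 went the other way, from 43.0 ± 10.8 CPM in the parotid to 87.1 ± 10.001 CPM in the submandibular gland (log2 fold change -1.02, SE 0.22, edgeR adjusted p = 0.00171). Its 4 group means ran from parotid epithelium over submandibular epithelium and parotid mesenchyme to submandibular mesenchyme, and of the neighbours in that order only the 2 epithelia overlapped. These 4 calls held in all 26 alternatives.

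Cdh11 was 1.74 times higher in parotid mesenchyme (1615 ± 293 against 926 ± 39.7 CPM) with no overlap of libraries, yet it was not called in the fit to all 16 libraries (log2 fold change 0.80, SE 0.42, edgeR adjusted p = 0.159). It was called in the fit to the 8 mesenchyme libraries (0.73, edgeR adjusted p = 0.000824), with limma-voom (0.79, adjusted p = 0.00213) and without submandibular epithelium replicate 3 (0.80, edgeR adjusted p = 0.00438), and over all alternatives the adjusted p ran from 0.000824 to 0.325. Cdh2 was at 104 ± 17.5 and 90.04 ± 43.9 CPM (0.21, SE 0.28, edgeR adjusted p = 0.607), and submandibular replicate 4, at 154 CPM, lay above every parotid library.

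The epithelial genes were low in both mesenchymes. Cdh3 had means of 2.17 ± 2.09 and 6.16 ± 4.84 CPM in parotid and submandibular mesenchyme (log2 fold change -1.55, SE 0.60, edgeR adjusted p = 0.0599), with overlap through parotid replicate 1. Without that library the difference was -2.46 and was called (edgeR adjusted p = 0.00572), as it was without submandibular mesenchyme replicate 1 (-1.79, edgeR adjusted p = 0.0402), and it was called in 6 of 26 alternatives with adjusted p from 0.00572 to 0.256. Cdh1 was at 1.57 ± 2.48 and 0.935 ± 0.327 CPM (0.65, SE 0.87, edgeR adjusted p = 0.608). Parotid replicate 1 decided its sign: without it the difference was -1.57 (edgeR adjusted p = 0.0711, in a range over the alternatives that ended at 0.763). Summed epithelial markers were 62.2 CPM in that library against 29.5 to 34.9 CPM in the other 3 parotid mesenchyme libraries, and their part in its Cdh1 and Cdh3 was not tested.

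**Figure D4:**
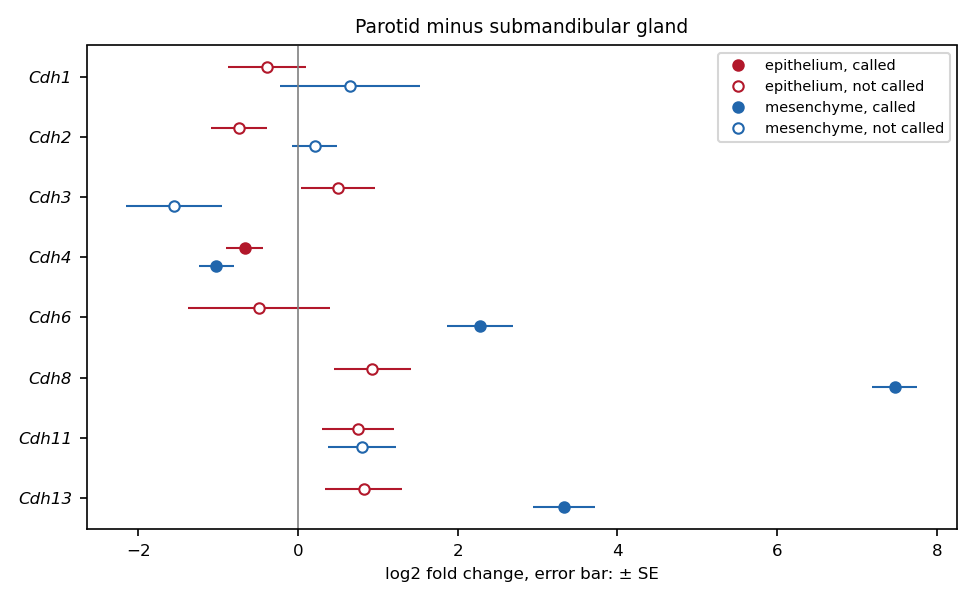
Fitted log2 fold change of parotid minus submandibular gland for each cadherin, with bars of 1 SE, in epithelium (red) and mesenchyme (blue), filled where called. Cdh8 at 7.47, Cdh13 at 3.33 and Cdh6 at 2.28 lie to the right in mesenchyme. Their epithelial points, at 0.93, 0.82 and -0.49, were not called, and Cdh4 lies left of 0 in both layers.

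Whether glands differed alike in the 2 layers was tested as an interaction, the gland difference in epithelium minus that in mesenchyme. Cdh8 (log2 -6.54, SE 0.70, edgeR adjusted p = 4.67e-06) and Cdh13 (-2.50, SE 0.62, edgeR adjusted p = 0.00779) were called, with a gland difference that was larger in mesenchyme. That is 2 of 8, where 20.9% of all genes were called, 8.67% with a positive and 12.2% with a negative value. Cdh13 was not called with limma-voom (-2.21, adjusted p = 0.0931), where its adjusted p was the highest of a range that began at 0.000248. Cdh6 (-2.77, SE 0.99, edgeR adjusted p = 0.0592) and Cdh3 (2.05, SE 0.76, edgeR adjusted p = 0.0708) lay just outside the threshold. Cdh6 passed it without submandibular mesenchyme replicate 4 (-3.16, edgeR adjusted p = 0.024) or submandibular epithelium replicate 2 (-3.16, edgeR adjusted p = 0.022), and Cdh3 without parotid mesenchyme replicate 1 (2.98, edgeR adjusted p = 0.0084). Cdh2 (-0.95, SE 0.45, edgeR adjusted p = 0.159) passed it without submandibular mesenchyme replicate 4 (-1.33, edgeR adjusted p = 0.0132). Over all alternatives the adjusted p ran from 0.0179 to 0.198 for Cdh6, from 0.0084 to 0.181 for Cdh3 and from 0.0132 to 0.386 for Cdh2. For Cdh4 the interaction was 0.35 (SE 0.32, edgeR adjusted p = 0.482), so its lower parotid level was not shown to differ between the layers. For Cdh11 it was -0.05 (SE 0.62, edgeR adjusted p = 0.970) and for Cdh1 -1.04 (SE 1.00, edgeR adjusted p = 0.522).

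Markers of other cells moved with the gland in mesenchyme. The 10 neuron markers summed to 381, 522, 555 and 767 CPM in parotid mesenchyme and to 60.7, 48.0, 238 and 82.8 CPM in submandibular mesenchyme; 5 were higher and 2 lower in the parotid. The 10 skeletal muscle markers summed to 1671, 1622, 1431 and 416 CPM against 182, 243, 376 and 209.6 CPM, with 9 higher in the parotid. For all genes the shares called between the mesenchymes were 20.8% higher and 13.7% lower in the parotid. Endothelial markers, of which none was called, summed to 569, 784, 531 and 533 CPM against 594, 587, 629 and 766 CPM. Among the 4 parotid mesenchyme libraries Cdh6, Cdh8 and Cdh11 had the same order of levels as the summed neuron markers, and Cdh13 had the reverse order. That order is the one of the replicate numbers. With 4 libraries a shared order can easily arise by chance, and no test of it was made. Replicate 4 had the lowest muscle markers and the lowest Cdh13, but the highest Cdh8, at 152 CPM, and the highest Cdh6, at 57.6 CPM. Without replicate 4 these genes stayed higher in the parotid, as in every other alternative. In submandibular mesenchyme replicate 3 had the most neuron markers of its group, 238 CPM, and 0.826 CPM of Cdh8. Of the defining neuron genes, Stmn2 was at 325 ± 119 and 13.4 ± 9.12 CPM in parotid and submandibular mesenchyme, Gap43 at 105 ± 14.4 and 34.7 ± 24.7 CPM and Prph at 15.1 ± 6.57 and 0.168 ± 0.267 CPM. The part of neurons or muscle in the cadherin values was not tested.

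Of 15 further Cdh genes in the table, 12 passed the filter, and none of them was called higher in epithelium in either gland, while 11 were called lower in parotid and 10 in submandibular epithelium. Of all genes 33.5% and 33.7% were called lower. Cdh5, the gene of the endothelial VE-cadherin, had means of 68.4 ± 21.7 and 94.0 ± 32.1 CPM in parotid and submandibular mesenchyme and was at most at 1.30 CPM in an epithelial library. It was not called between the mesenchymes. In mesenchyme 6 of the 12 were called higher in the parotid and 1 lower, beside 20.8% and 13.7% of all genes, and in epithelium 1 was called, Cdh10, which was higher in the parotid by 1.65.

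Several of these genes shared the parotid excess seen for Cdh8. The type II cadherin Cdh10 was at 160.1, 194, 202 and 257 CPM in parotid mesenchyme against 11.3, 8.14, 9.55 and 8.39 CPM in submandibular mesenchyme (log2 fold change 4.44, SE 0.19, edgeR adjusted p = 1.94e-10). Cdh9, also of type II, was at 23.0, 31.5, 31.1 and 43.1 CPM against 0.510, 0.350, 0.258 and 0.436 CPM (6.35, SE 0.48, edgeR adjusted p = 4.23e-08). In both the highest parotid library was replicate 4, as for Cdh8. The other genes called higher in the parotid, given here because the count is small and not by a rule of size, were Cdh12 (4.51), Cdh18 (4.44), Cdh20 (3.25) and Cdh15 (2.03), and the gene called lower was Cdh23 (-2.10). Cdh15 is the muscle cadherin, and at 74.2, 79.4, 73.6 and 20.8 CPM it was lowest in replicate 4 of the parotid mesenchyme, as the muscle markers were. Cdh19, a gene of Schwann cell precursors, had no count in parotid epithelium and 86 in parotid mesenchyme, at least 29.8-fold higher when epithelium is put at 3 counts over the group. In the submandibular gland it was 373 times higher in mesenchyme, 292 counts against 1, with a 95% exact counting interval of 66.4 to 14773 that covers counting error only.

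**Figure D5:**
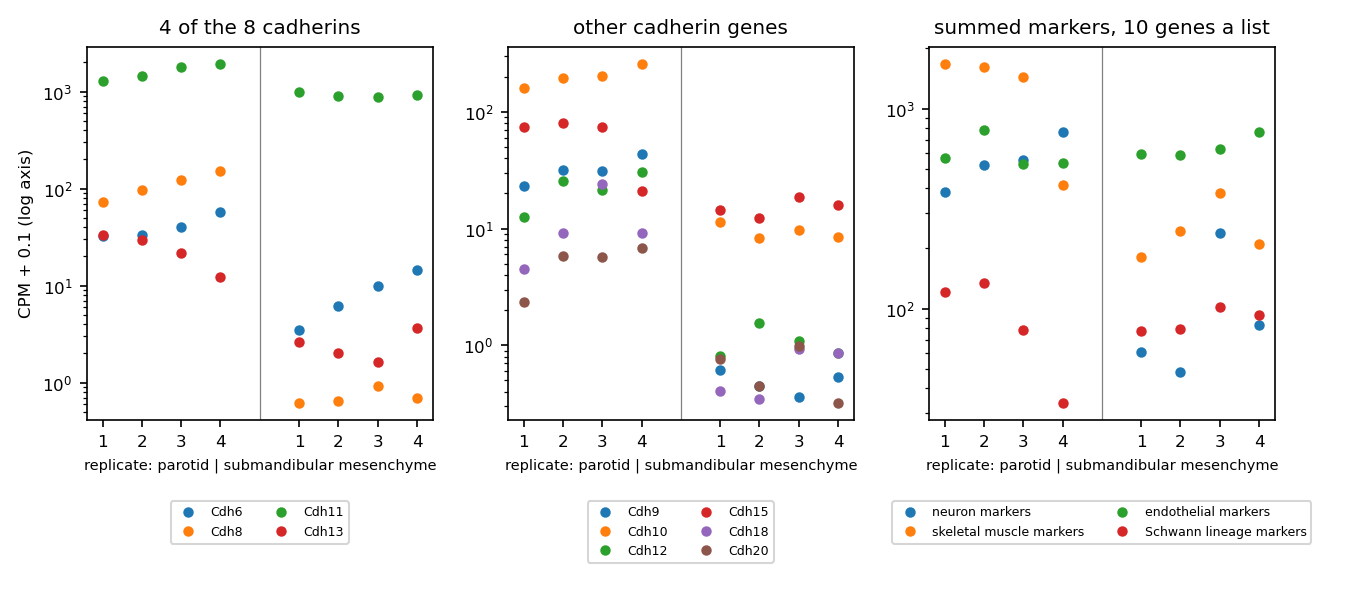
CPM plus 0.1 on a log axis in the 8 mesenchyme libraries, parotid left and submandibular right of the grey line, for 4 of the 8 cadherins, for other cadherin genes and for summed markers of other cells. Cdh8, Cdh9 and Cdh10 are high in every parotid library and low in every submandibular one, while endothelial markers lie between 531 and 784 CPM on both sides.

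Catenins bind the tails of classical cadherins or link them to actin. The catenin list, which also holds Ctnnal1 and Ctnnbip1, had median layer differences far below that of Cdh1. Of the 10 genes of this list with a feature, 9 were tested. In parotid epithelium 4 of them were called higher and 1, Ctnna2, lower than in mesenchyme, and in submandibular epithelium 7 were called higher and Ctnna2 again lower, with medians of 0.30 and 0.74. The shares of all genes called higher in epithelium were 31.4% and 33.3%. β-catenin (Ctnnb1), named for its role and not for its size of change, was at 1149 ± 73.6 CPM in parotid epithelium and 796 ± 27.6 CPM in parotid mesenchyme, and at 1244 ± 61.4 and 793 ± 77.6 CPM in the submandibular gland. That is a difference of 0.53 and 0.65 on the log2 scale, against 8.03 and 9.07 for Cdh1. Ctnnal1, an α-catenin-like gene, was higher in epithelium by 2.17 and 3.35, and the neural α-catenin Ctnna2 had log2 fold changes of -3.98 and -3.91. The δ-catenin gene Ctnnd2 was higher in submandibular epithelium than in its mesenchyme by 4.12, while in the parotid it was at 17.1 ± 1.54 and 12.3 ± 2.46 CPM in epithelium and mesenchyme. It was lower in parotid than in submandibular epithelium (-1.39) and higher in parotid than in submandibular mesenchyme (2.25). Plakoglobin (Jup), the β-catenin relative shared with desmosomes, was higher in parotid mesenchyme, 207 ± 61.3 against 94.8 ± 4.93 CPM. In mesenchyme 6 of the 9 were called higher in the parotid, beside 20.8% of all genes, and none lower. In epithelium none was called higher and 2, Ctnnd2 and Pkp4, lower, beside 11.2% and 9.72% of all genes.

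Among 11 actin linkers and nectins, 5 were called higher in parotid epithelium than in its mesenchyme and 2 lower, and in the submandibular gland 5 higher and 3 lower. For all genes the shares were 31.4% higher and 33.5% lower, and 33.3% and 33.7%. Between the glands 3 were higher and 1 lower in parotid epithelium, and 5 and 1 in parotid mesenchyme. Nectin4, an immunoglobulin-like adhesion gene, had means of 40.8 ± 6.85 and 84.4 ± 14.8 CPM in parotid and submandibular epithelium and was near 0.5 CPM in both mesenchymes. Zyx, which encodes the actin-associated zyxin, was highest in parotid mesenchyme at 504 ± 59.3 CPM, against 175 ± 11.8 CPM in submandibular mesenchyme. Of 12 genes of cadherin processing and turnover, 3 were higher and 5 lower in parotid epithelium, 2 and 6 in submandibular epithelium, 4 and 0 in parotid against submandibular epithelium, and 4 and 1 in mesenchyme. Between the glands the shares of all genes called were 11.2% higher and 9.72% lower in epithelium and 20.8% and 13.7% in mesenchyme. The convertase gene Furin was at 75.0 ± 14.6, 105 ± 16.6, 56.8 ± 9.49 and 120.0 ± 16.7 CPM in the epithelium and mesenchyme of the parotid and then of the submandibular gland. Its relative Pcsk6 was higher in epithelium, at 84.3 ± 19.8 and 12 ± 4.33 CPM in the parotid layers and 37.4 ± 10.2 and 9.87 ± 0.765 CPM in the submandibular ones.

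All 7 genes listed as activators of Cdh1 or of the epithelial state were called higher in epithelium in both glands, with medians of 7.13 and 7.55. The shares of all genes called higher were 31.4% and 33.3%. The list shares Esrp1, a splicing factor of epithelia, and Grhl2 with the epithelial markers. Ovol2, a zinc finger gene, was at 13.5 ± 1.52 and 10.7 ± 1.68 CPM in the epithelia and at most at 0.0505 CPM in the means of the mesenchymes. Of 8 genes listed as repressors of Cdh1, 6 were called lower and none higher in parotid epithelium, and 7 lower and 1 higher, Tcf3 by 0.31, in submandibular epithelium. The shares of all genes called lower were 33.5% and 33.7%. Zeb1 was at 1.63 ± 0.967 and 0.545 ± 0.324 CPM in parotid and submandibular epithelium and 120.3 ± 13.6 and 87.8 ± 7.42 CPM in the mesenchymes. Zeb2 reached 291 ± 53.9 CPM in the mesenchyme of the parotid and 50.9 ± 3.73 CPM in that of the submandibular gland, while Cdh1 stayed below 5.3 CPM in every library of both. Snai2, added here after its values were seen, differed little between the layers: it was at 105 ± 6.62 and 114 ± 12.7 CPM in the epithelia and 98.4 ± 9.95 and 142 ± 21.2 CPM in the mesenchymes, and it was called in the submandibular gland alone (-0.32). Between the epithelia 6 repressors were called higher in the parotid, beside 11.2% of all genes, and none lower. Twist1 and Twist2 of this list are also among the 12 mesenchymal markers, of which 5 were called higher in parotid epithelium and none lower. Of 10 macrophage markers 8 were called higher there and none lower, with sums of 24.9 ± 4.92 against 6.68 ± 2.51 CPM, and of 10 endothelial markers 5 higher and 1 lower, with sums of 13.9 ± 4.28 and 13.7 ± 2.00 CPM. The part of RNA of these cells in the repressor values was not tested. Between the mesenchymes 3 repressors were called higher in the parotid and 1, Snai2, lower, beside 20.8% and 13.7% of all genes. Among the 7 activators none was called higher in the parotid, and 1 was called lower in each layer, Ovol1 in epithelium (-2.74) and Elf3 in mesenchyme (-2.40). The shares of all genes called lower in the parotid were 9.72% in epithelium and 13.7% in mesenchyme. Tcf3, Ovol1 and Pkp4, like Snai2, were named after their values were seen, because the counts they belong to are small.

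For each cadherin the genes with the most similar pattern were sought among the 11471 genes whose mean reached 10 CPM in some group. Likeness was the root mean square difference, over the 16 libraries, of log2(CPM + 0.5) centred on each gene's own mean, so that 0 means the same pattern. This is a description of 16 libraries in 4 groups and carries no test. The genes were picked for likeness over these same libraries, so a difference they share with a cadherin is no separate evidence for it. The 3 nearest to Cdh1 were Esrp1 (0.51), the tight junction gene Cldn6 (0.53) and the epidermal kinase gene Ripk4 (0.57). Nearest to Cdh3 were the transcription factor gene Pax9 (0.51), the desmosomal cadherin Dsg2 (0.53) and the collagen gene Col9a1 (0.55). These also had more RNA in submandibular than in parotid mesenchyme, with means of 5.14 against 1.60, 3.797 against 1.13 and 11.8 against 3.17 CPM. Cdh2 was most like the neural adhesion gene Ncam1 (0.41), the endothelial protocadherin Pcdh12 (0.43) and the vascular phosphatase gene Ptprb (0.44).

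Among the genes nearest to Cdh4 were Serp2 (0.35) and Ikzf4 (0.39), which had their highest mean in submandibular mesenchyme too. Cdh11 was most like Cd248 (0.35), the gene of endosialin of stromal cells, the corepressor gene Runx1t1 (0.38) and the filamin gene Flnc (0.39). Nearest to Cdh6 were the potassium channel subunit gene Kcne3 (0.40), Tafa2 (0.41) and the neurturin receptor gene Gfra2 (0.42). Nearest to Cdh8 were the peptidase gene Trhde (0.48), the neuropeptide Y receptor gene Npy1r (0.50) and the T-box gene Tbx15 (0.55). They were at 87.1, 47.4 and 96.6 CPM in parotid mesenchyme and below 1 CPM in every other group mean. Cdh13 was most like Cbln2 (0.50), the ciliary neurotrophic factor receptor gene Cntfr (0.50) and Rtn4rl2 (0.51). Among the 8 cadherins themselves the closest pair was Cdh2 and Cdh6, at 0.84, followed by Cdh6 and Cdh13 at 1.15. The 0.5 CPM added to each value shrinks differences among values near 0, such as those of Cdh6 in epithelium. Cdh6 was called between the mesenchymes and Cdh2 was not, so a small distance does not mean the same calls. Cdh1 and Cdh3, the 2 epithelial genes, were 1.56 apart.

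Promoter sequences from RefSeq (GRCm38.p6) were found for 2 of the 8 genes, Cdh8 and Cdh6, which were both higher in parotid than in submandibular mesenchyme. The 250 bases before the annotated start are shown 5′ to 3′ on the coding strand, both genes lying on the minus strand, with capitals marking GGGCGG, the GC box.
Cdh8, chr8:99416472-99416721: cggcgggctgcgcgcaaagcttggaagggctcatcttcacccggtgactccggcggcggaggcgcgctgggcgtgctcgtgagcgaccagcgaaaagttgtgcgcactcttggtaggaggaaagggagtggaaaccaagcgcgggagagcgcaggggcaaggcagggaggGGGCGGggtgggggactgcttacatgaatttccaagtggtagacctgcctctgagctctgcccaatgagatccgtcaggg
Cdh6, chr15:13173676-13173925: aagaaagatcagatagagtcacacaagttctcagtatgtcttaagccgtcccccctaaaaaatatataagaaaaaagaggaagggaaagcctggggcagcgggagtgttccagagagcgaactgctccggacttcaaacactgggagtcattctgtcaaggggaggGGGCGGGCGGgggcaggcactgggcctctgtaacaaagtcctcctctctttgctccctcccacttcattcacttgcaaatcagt
GGGCGG was found once in Cdh8, its first base 80 bases before the start, and in 2 overlapping copies in Cdh6, at 84 and 80 bases before the start. On either strand it occurs in 32.7% of the 32851 promoters of this length in the table. The E-box CACCTG, present in 17.2% of them, and TATAAA, present in 12.4%, were in neither window on either strand. GC content was 64.4% for Cdh8 and 51.2% for Cdh6, and the median of all promoters was 52.4%.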

How the data were processed

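The authors deposited raw counts for each gene feature and library, a table of the same counts limited to 23400 features, and a normalized signal that its name calls CPM. Recomputing CPM from the 23400 features with edgeR and TMM scaling gave the deposited signal back to within a relative difference of 4.98e-15. The CPM values given here are not the deposited ones. They were computed from the raw counts with the library totals and TMM factors of the 18191 genes fitted. Per the submitters' processing notes STAR 2.5.2a, edgeR and the build GRCm38 (mm10) were used; how reads were counted and with which annotation is not given in the sources used here. Per the labels' protocols full-length cDNA was made with SMART-Seq v4 and libraries with Nextera XT.

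The 16 libraries were fitted together to the raw counts, without the 92 spike-in features (0.00115 to 0.00651% of a library), in edgeR 4.0.16 under R 4.3.3. The fit used robust quasi-likelihood, 1 coefficient a group, TMM factors of 0.926 to 1.09, and filterByExpr, which kept 18191 genes. A gene is called where its Benjamini-Hochberg adjusted p over all of these is under 0.05. An SE is the fold change divided by the square root of F. Alternatives were other scalings and filters, DESeq2 1.42.0, limma-voom (limma 3.58.1), fits to the libraries compared, a replicate block, each library left out, and the 2 epithelial libraries with most erythroid RNA left out.

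The members and the gene lists were chosen with earlier results of these data known. Named genes are all 8 members, from each list up to 4 called genes with the largest fold change, and the 3 genes nearest in pattern to each member; a few of these values are not reported here. For 1 listed gene, Arvcf, no feature was matched. Protein sequences were not used here, and the start of the mature protein was read from the coding sequence instead. Replicates differed beyond sampling noise in all 24 within-group pairs (chi-square per gene 10.5 to 55.7). P-values measure the spread between these samples, and that they are independent rests on the labels.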

Additional observations from a re-analysis of the deposited data

Results flagged for a closer look

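Parotid mesenchyme replicate 1 stood apart from the other 3 libraries of its group in Cdh1, at 5.26 CPM against 0 to 0.767 CPM. The gap to the next library was 0.854 of the range of the group, above the 95% critical value of Dixon's test for 4 libraries. It was the single case among 32 sets of 4 libraries (8 cadherins in 4 groups), where chance alone is set to give about 1 in 20.

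The gland difference of Cdh8 was larger in mesenchyme than in epithelium, with an interaction of -6.54 on the log2 scale (SE 0.70, edgeR adjusted p = 4.67e-06). For Cdh13 the interaction was -2.50 (SE 0.62, edgeR adjusted p = 0.00779). Both genes had means under 1 CPM in the epithelia of the 2 glands.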

How the results depend on the processing

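Each member's difference was recomputed in up to 26 alternatives, and 977 values kept their direction and their side of the threshold, 19 newly passed it, 20 no longer did and 14 changed sign. All 8 cadherins were called between the parotid layers throughout, and 8 between the submandibular layers except with limma-voom (7). The 4 calls between the mesenchymes held throughout, with 4 or 5 genes called. Between the epithelia the 1 call, Cdh4, fell to 0 with RLE scaling, with no filter on low counts, in the fit to the libraries compared and without the 2 libraries rich in erythroid RNA. With limma-voom Cdh4 was lost too (adjusted p = 0.0538) and Cdh11 was called in its place. The count ranged from 0 to 2 genes when 1 library was left out. Interaction calls ranged from 2 to 4 when 1 library was left out. Signs turned only where no call was made, and the cause was not tested. For Cdh1 the difference between the mesenchymes was -1.31 with limma-voom and -1.57 to 1.10 with 1 library left out, and its interaction was 0.93 and -1.49 to 1.20. The Cdh11 interaction was 0.017 with upper quartile scaling, 0.10 with library totals, 0.43 with limma-voom, 0.0043 with no filter, 0.018 with at least 1 CPM in 4 libraries and -0.34 to 0.88 with 1 library left out. Both ratios kept their direction, and their p-values, which with 4 libraries a group cannot fall below 0.0286, say nothing of stability.

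Library totals in place of TMM moved the median of all genes by -0.17 between the mesenchymes and by 0.14 in the interaction, and upper quartile scaling moved the former by -0.11. Genes called higher in the parotid were then 37.4% and 46.2% of all calls between the mesenchymes, against 60.3% with TMM, and positive interactions were 59.8% with library totals against 41.5%. The calls for Cdh4, Cdh6, Cdh8 and Cdh13 between the mesenchymes were not changed by this, and Cdh3 was called lower in the parotid (-1.72, edgeR adjusted p = 0.0376, with totals and -1.66, 0.045, with upper quartile).

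Leaving out submandibular epithelium replicate 1 reduced all calls between the epithelia from 3801 to 2452, and without parotid epithelium replicate 4 as well to 1846. Nothing in the labels ties replicate numbers across groups. Same-numbered libraries correlated between -0.17 and 0.38 in their deviations, with 7 of 24 pairs over 0.1, and not every sample correlated best with its own number (8 did). Between the submandibular layers the correlations were 0.37, 0.38, 0.089 and 0.12, and 3 of 4 libraries matched their own number best, so a partial pairing there is possible. With the replicate block the cadherin calls were 8, 8, 1, 4 and 3 in the 5 comparisons, Cdh6 being added to the interaction (-2.91, edgeR adjusted p = 0.023), and the Cdh11 interaction was 0.17. The paired form of the ratio test gave 0.87 for Cdh3 to Cdh1 (exact sign-flip p = 0.125, the smallest 4 pairs allow) and 0.48 for Cdh11 to Cdh2 (p = 0.375). The nearest-gene search, repeated with 3 other scalings chosen after the data were seen, kept 2 or 3 of the 3 genes of every member. Depth limits the epithelial values of Cdh6 and Cdh8, which rest on 13 to 29 counts a group.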
